A study of Mus musculus with 7 samples.

Results

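The heat shock proteins described here are 10 genes of the cytosolic and mitochondrial protein-folding machinery: Hspa1a, Hspa1b, Hspb1, Hsph1, Dnajb1, Hspa8, Hsp90aa1, Hsp90ab1, Hspd1 and Hspe1. They were chosen by symbol in the annotation of the array, keeping for each gene the probe set with the highest mean. Of the 10, 8 had a row under their symbol among 19505 named genes, and Hspa8 and Hsp90ab1 were not analysed here. Each sample, hybridised to an expression array of its own, was of microglia, the macrophages that reside in the brain. Cells that excluded a viability dye and carried CD45 and CD11b were sorted from brain suspensions. All samples came from C57BL/6 mice with the 5xFAD transgenes, which are expressed in neurons and lead to amyloid plaques. The labels gave the genotype as 5xFAD;B2m+/+ in 3 samples (wildtype) and as 5xFAD;B2m–/– in 4 samples (knockout), and stated no age, sex or litter. Replicate numbers here follow deposit order within a genotype and pair no samples. B2m encodes the light chain of MHC class I, and mice without it also develop few CD8+ T cells. The comparison asks how microglial transcripts differ between these genotypes when plaque-forming transgenes are present in both.

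Heat shock proteins are molecular chaperones, which bind unfolded or newly made polypeptides and help them to fold, to be disaggregated or to be passed on for degradation. HSP70 proteins hold a client through a cycle of ATP hydrolysis that is started by J-domain partners and reset by nucleotide exchange factors, and HSP90 receives part of these clients. Under proteotoxic stress the transcription factor HSF1 binds heat shock elements, alternating GAA and TTC units, and raises the inducible members within minutes, so that enzymatic or warm tissue dissociation can also raise them in sorted microglia.

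The promoters of the members that the results turn on are shown first, because they set which members carry such elements and which are near-copies of each other. A script searched the 250 bases before each start site in the RefSeq promoter table (GRCm38.p6) for 3 units, GAANNTTCNNGAA or TTCNNGAANNTTC, and for 2 units, GAANNTTC or TTCNNGAA. The 3-unit forms are reverse complements of each other and each 2-unit form is its own reverse complement, so both strands were covered, and every 3-unit match contains 2-unit matches. Of the 8 members, 7 had entries in the table, with 10 windows among them. At least 2 units occurred upstream in some window of 6 of these genes, which include near-copies and a shared promoter. Of all 32851 promoter windows, counted singly rather than by gene, 12.8% held them. The 3-unit form occurred upstream in Hspd1 and Hspe1, which share most of a window, against 0.466% of all single windows. In the following stretches, printed 5′ to 3′ on the strand of the gene, capitals mark the 2-unit matches. Hspa1a and Hspa1b are given whole, and the other 3 as the stretch around their matches.
Hspa1a, chr17:34972157-34972406, minus strand: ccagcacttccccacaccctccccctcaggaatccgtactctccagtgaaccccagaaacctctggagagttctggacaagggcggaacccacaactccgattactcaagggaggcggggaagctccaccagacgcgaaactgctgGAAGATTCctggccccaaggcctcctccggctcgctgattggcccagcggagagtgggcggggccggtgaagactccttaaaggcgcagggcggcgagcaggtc
Hspa1b, chr17:34959239-34959488, minus strand: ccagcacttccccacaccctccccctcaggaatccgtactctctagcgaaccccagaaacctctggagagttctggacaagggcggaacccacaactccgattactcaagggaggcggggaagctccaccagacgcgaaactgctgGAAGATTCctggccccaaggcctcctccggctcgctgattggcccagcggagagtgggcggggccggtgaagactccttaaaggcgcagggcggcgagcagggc
Hspb1, chr5:135887769-135887848, plus strand: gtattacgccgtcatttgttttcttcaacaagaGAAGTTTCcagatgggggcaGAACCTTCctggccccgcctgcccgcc
Hspe1, chr1:55088028-55088107, plus strand: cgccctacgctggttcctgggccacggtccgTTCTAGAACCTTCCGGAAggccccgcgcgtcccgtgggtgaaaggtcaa
Hsph1, chr5:149636342-149636401, minus strand: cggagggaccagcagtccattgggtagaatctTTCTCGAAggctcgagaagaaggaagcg

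Hspa1a and Hspa1b, neighbours on chromosome 17 with 0 genes starting between them, had the same base at 247 of 250 upstream positions. Both held the match GAAGATTC at 104 bases before the start. Hspd1 and Hspe1, neighbours on chromosome 1 that are read in opposite directions, shared 285 of the 300 bases of their windows, so the run of capitals printed for Hspe1 is also the match of Hspd1 on the other strand. Hsph1 had, beside the upstream match, a 3-unit match that began 36 or 15 bases after its start, depending on which of its starts was taken. No match was found in the windows of Dnajb1. A match describes the letters of these windows only.

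All levels are the authors' RMA values, which are log2 expression, and a difference is knockout minus wildtype on that scale. On each array the value that 95% of its 5222 negative control rows stayed under is called the background limit. B2m itself (Entrez Gene 12010) was 13.42, 13.41 and 13.39 with B2m intact and 10.40, 10.56, 10.47 and 10.24 without B2m. It fell by 2.99 (SE 0.10, limma adjusted p = 1.55e-07), in the direction that the labels give. Of 10004 tested genes, 0.05% passed an adjusted p under 0.05. Correlations between arrays over the tested genes ran from 0.946 to 0.98. The sort is seen in the microglial marker list: 11 of its 11 named markers lay above the background limit in every array, and Selplg, Csf1r and P2ry12 were the brightest. Of 16 T and natural killer cell markers 0 did so in any array. Some markers of other cell types did so in every array, among them 8 of 23 for endothelial and mural cells and 5 of 12 for neutrophils. The share of other cells in the samples was not tested.

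Most heat shock proteins had slightly lower mean levels in knockout microglia, and none passed the test. In limma 0 of the 8 members passed an adjusted p under 0.05. At an unadjusted p under 0.05, 2 were lower and 0 higher, where 3.54% of all tested genes were lower and 8.39% higher. Differences were below 0 in 7 of the 8, with a median of -0.29, whereas 51.4% of all tested genes lay below 0 with a median of -0.0055. The groups did not overlap in 1 member, Hspa1a, which had all knockout arrays below all wildtype arrays, as did 3.8% of all tested genes. The opposite order, without overlap, was found in 0 members and in 7.1% of all tested genes. All 8 had passed the filter on dim genes.

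**Figure D1:**
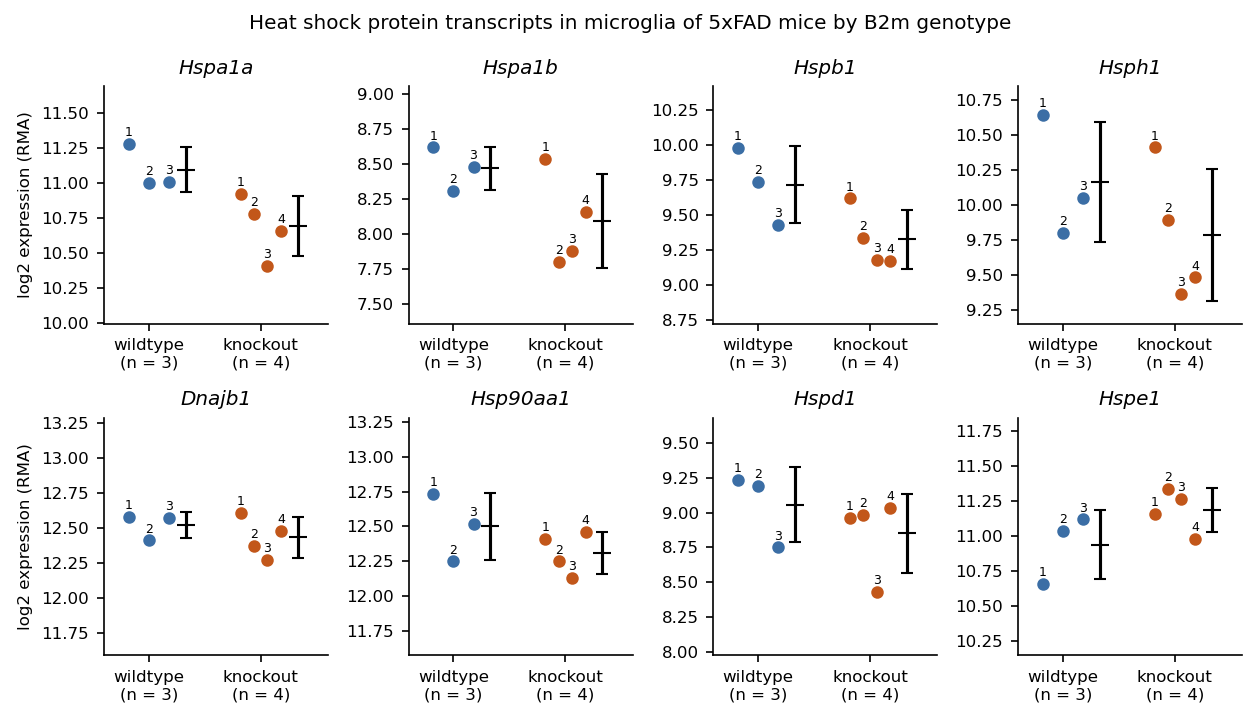
Log2 expression (RMA) of the 8 heat shock protein transcripts, 1 point per array with its replicate number, in 3 B2m wildtype (blue) and 4 B2m knockout (orange) arrays. Bars give the mean and SD, and every panel spans the same height in log2 units. Hspa1a is the member in which every knockout array lies below every wildtype array.

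Hspa1a and Hspa1b encode the stress-inducible cytosolic HSP70. Hspa1a (Entrez Gene 193740) was 11.28, 11.00 and 11.01 with B2m intact and 10.92, 10.78, 10.41 and 10.66 without B2m. The lowest wildtype array thus stood above the highest knockout array, and knockout replicate 3 was the lowest. The means were 11.10 ± 0.16 (SD, n = 3) and 10.69 ± 0.22 (SD, n = 4), a difference of -0.41 (SE 0.14, 95% confidence interval -0.71 to -0.11, limma adjusted p = 0.343). This is 1.33-fold, with an interval of 1.08 to 1.64, and all values lay above 98.2% of the negative control rows.

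Hspa1b (Entrez Gene 15511) was 8.62, 8.31 and 8.48 with B2m intact and 8.54, 7.80, 7.88 and 8.16 without B2m. Here knockout replicate 1 lay among the wildtype arrays and the other 3 knockout arrays below them. The difference was -0.37 (SE 0.17, 95% confidence interval -0.75 to 0.0096, adjusted p = 0.432). Hspa1b lay below the background limit in all 7 arrays, so no fold is given. The coding sequences of both genes are nearly identical, so probes can read both transcripts. How the array separates them was not analysed here, and they are not independent observations.

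Hspb1 encodes HSP27, a small heat shock protein that holds unfolded clients without ATP and is abundant in vascular cells. Its values (Entrez Gene 15507) were 9.98, 9.74 and 9.43 with B2m intact and 9.62, 9.34, 9.18 and 9.17 without B2m. Knockout replicate 1 reached into the wildtype range, and the other 3 lay below it. The means were 9.72 ± 0.27 (SD, n = 3) and 9.33 ± 0.21 (SD, n = 4), a difference of -0.39 (SE 0.15, 95% confidence interval -0.73 to -0.054, limma adjusted p = 0.380). It stood above the background limit in 3 of 3 wildtype arrays and 1 of 4 knockout arrays.

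By their median, endothelial and mural markers were also highest in wildtype replicates 1 and 2, the highest arrays for Hspb1. Of the endothelial and mural markers 21 were tested, and 21 of them had differences below 0, against 51.4% of all tested genes. Their median was -0.348. In limma 0 of them passed, and 8 reached an unadjusted p under 0.05, all of them lower, as were 3.54% of all tested genes. The 23 named markers had median deviations from the gene mean of 0.33 and 0.46 in wildtype replicates 1 and 2, -0.18 in wildtype replicate 3 and -0.19 to -0.02 in the knockout arrays. The log2 of their summed level was 14.87 to 15.37 with B2m intact and 14.88 to 15.04 without B2m. The brightest, Bsg, Slc2a1 and Cldn5, were above the background limit in every array and did not share 1 pattern. Bsg was 13.03, 13.08 and 13.07 with B2m intact and 13.11, 13.05, 13.07 and 12.94 without B2m (-0.018). Slc2a1 was 12.91, 13.04 and 12.73 with B2m intact and 12.87, 12.83, 12.73 and 12.70 without B2m (-0.11). Cldn5 was 12.38, 12.60 and 11.78 with B2m intact and 12.17, 12.02, 12.20 and 11.77 without B2m (-0.21). Of the list, 8 of 23 markers lay above the background limit in all arrays. Without wildtype replicates 1 and 2, which leaves 1 wildtype array, the difference was -0.11 for Hspb1, -0.32 for Hspa1a, -0.38 for Hspa1b and -0.27 for Hsph1. For Dnajb1, Hsp90aa1, Hspd1 and Hspe1 it was -0.14, -0.21, 0.10 and 0.072. Wildtype replicates 1 and 2 were the highest arrays for Hspb1, so leaving them out had to shrink its difference. The source of its RNA cannot be read from these values. The part of endothelial RNA in the member values was not tested. In such bulk samples fewer cells of a type and less RNA per cell cannot be told apart.

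Hsph1 encodes HSP110, a nucleotide exchange factor that resets HSP70. It varied the most between arrays of 1 genotype among the 8. Hsph1 (Entrez Gene 15505) was 10.64, 9.80 and 10.05 with B2m intact and 10.41, 9.89, 9.36 and 9.48 without B2m. Knockout replicates 3 and 4 were below all wildtype arrays, and knockout replicates 1 and 2 were within their range. The means were 10.16 ± 0.43 (SD, n = 3) and 9.79 ± 0.48 (SD, n = 4). The difference of -0.38 (SE 0.26) had a 95% confidence interval from -0.95 to 0.20, with a limma adjusted p of 0.587.

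Dnajb1 encodes the J-domain protein HSP40, which delivers clients to HSP70 and starts its ATPase cycle. It is itself an inducible gene, yet its values (Entrez Gene 81489) were close together, with 12.58, 12.41 and 12.57 with B2m intact and 12.61, 12.37, 12.27 and 12.48 without B2m. The highest array of all was knockout replicate 1, and the groups overlapped. The difference was -0.088 (SE 0.11, 95% confidence interval -0.33 to 0.16, limma adjusted p = 0.790), so a decrease of up to 1.26-fold lies within the interval.

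Hsp90aa1 encodes the inducible cytosolic HSP90 alpha, which completes the folding of kinases and steroid receptors. It was 12.73, 12.25 and 12.52 with B2m intact and 12.41, 12.25, 12.13 and 12.46 without B2m (Entrez Gene 15519). Wildtype replicate 2 was level with knockout replicate 2, and the other wildtype arrays lay above all knockout arrays. The means of 12.50 ± 0.24 (SD, n = 3) and 12.31 ± 0.15 (SD, n = 4) differed by -0.19 (SE 0.13, 95% confidence interval -0.48 to 0.11, limma adjusted p = 0.603).

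Hspd1 and Hspe1 encode HSP60 and HSP10, the barrel and the lid of the mitochondrial chaperonin, and share the promoter shown above. Their differences had opposite signs. Hspd1 (Entrez Gene 15510) was 9.23, 9.19 and 8.75 with B2m intact and 8.96, 8.98, 8.43 and 9.03 without B2m. Wildtype replicate 3 and knockout replicate 3 were its low arrays. The difference was -0.21 (SE 0.17, 95% confidence interval -0.59 to 0.17, limma adjusted p = 0.660), and all values lay below the background limit, so no fold is given.

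Hspe1 (Entrez Gene 15528) was the 1 member with a higher knockout mean. It was 10.66, 11.04 and 11.12 with B2m intact and 11.16, 11.34, 11.27 and 10.98 without B2m. Wildtype replicate 1, the highest array for Hspd1, was the lowest for Hspe1, and 3 of 4 knockout arrays lay above all wildtype arrays. The means of 10.94 ± 0.24 (SD, n = 3) and 11.19 ± 0.16 (SD, n = 4) differed by 0.25 (SE 0.14, 95% confidence interval -0.054 to 0.55, limma adjusted p = 0.4999).

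**Figure D2:**
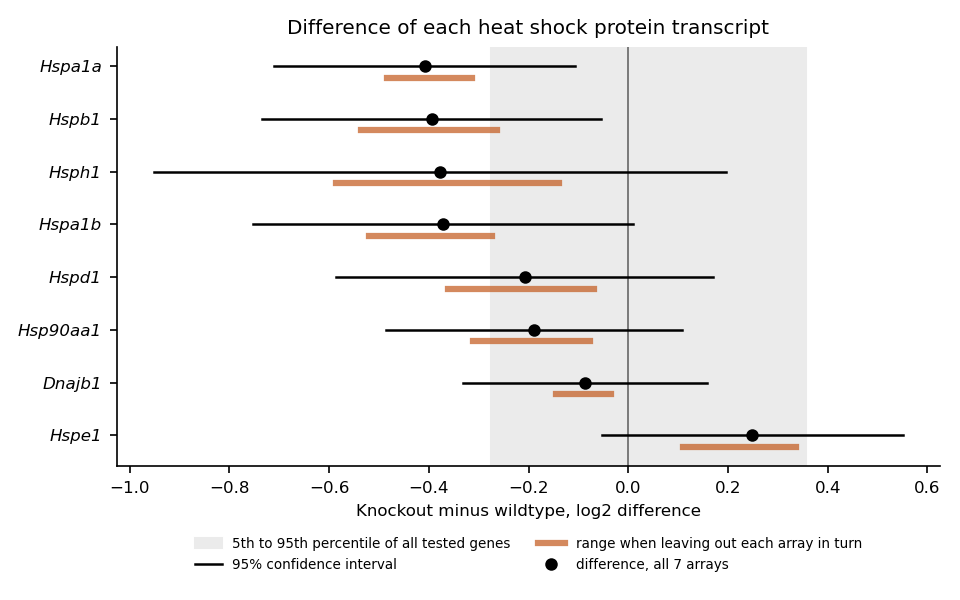
Knockout minus wildtype difference (log2) of each heat shock protein transcript over all 7 arrays (point), with its 95% confidence interval (black) and the range of the estimate when each array is left out in turn (orange). Grey marks the 5th to 95th percentile of the differences of all tested genes. Only the intervals of Hspa1a and Hspb1 lie wholly below 0.

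Most members had the same highest array and the same lowest array, and they went both ways in some others. The matching counts over all tested genes were not taken. Wildtype replicate 1 was the highest of the 7 arrays for 6 of the 8 members, with a median deviation of 0.35 from the gene mean, and the lowest for Hspe1. Knockout replicate 3 was the lowest for 5 of the 8, with a median deviation of -0.35. Knockout replicate 1 lay above the gene mean for 8 of 8 members, with a median deviation of 0.10, the same as in wildtype replicate 3. Median deviations were 0.01 in wildtype replicate 2, -0.09 in knockout replicate 2 and -0.10 in knockout replicate 4. Single members ran from -0.15 to 0.25 in wildtype replicate 2 and from -0.47 to 0.09 in knockout replicate 4.

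The number of members at an unadjusted p under 0.05 in limma depended on single arrays. The count of lower members, 2 over all arrays, was 0 without wildtype replicate 1, 1 without knockout replicate 3, 1 without knockout replicate 4 and 4 without knockout replicate 1. The median over the members was -0.13 to -0.36 when single arrays were left out. The members without overlap, 1 over all arrays, were 2 without wildtype replicate 2 and 3 without wildtype replicate 3 or knockout replicate 1. A lack of overlap is more likely with fewer arrays. For neither count was the share over all tested genes taken in these smaller sets. For Hspa1a alone the difference stayed between -0.48 and -0.31, and it was at an unadjusted p under 0.05 in 6 of 7 such fits. Hsph1 ranged from -0.59 to -0.14 and Dnajb1 from -0.15 to -0.034.

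**Figure D3:**
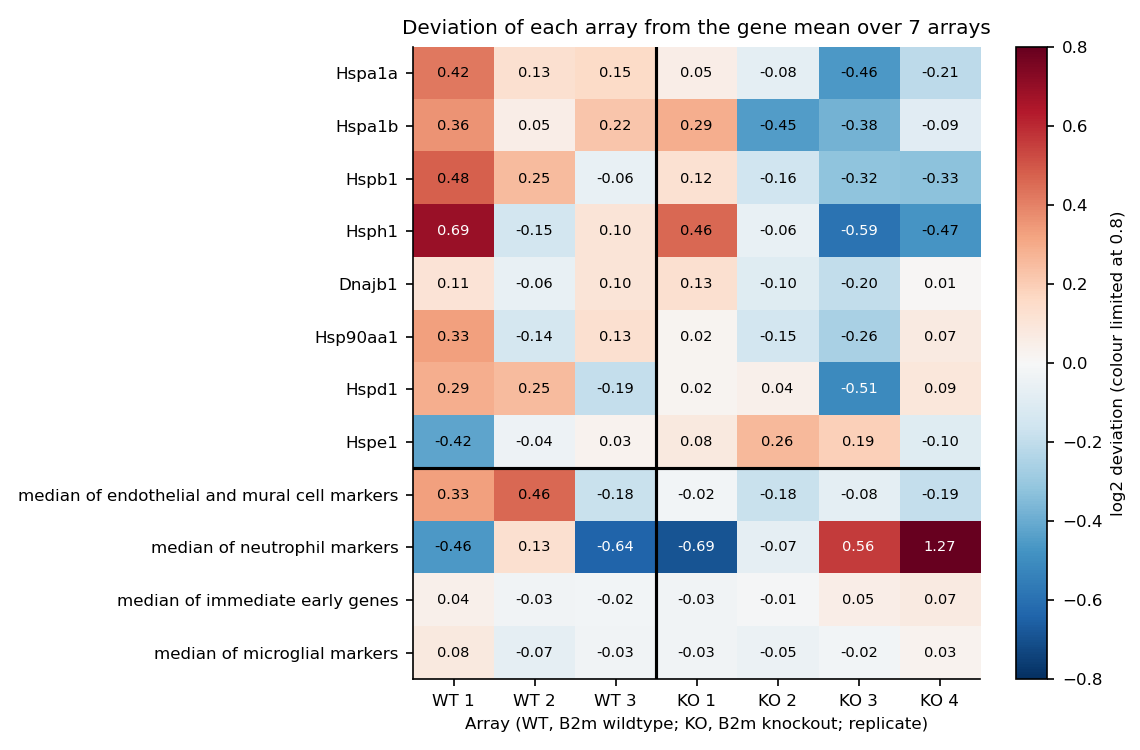
Deviation (log2) of each array from the gene's mean over the 7 arrays for the 8 heat shock protein transcripts, and, below the line, the median deviation of 4 comparison lists. Wildtype replicate 1 is high and knockout replicate 3 low for most members. Neutrophil markers range from -0.69 to 1.27 and microglial markers from -0.07 to 0.08.

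Values of other lists are given beside this pattern. Immediate early genes, which can also rise during dissociation, had median deviations of -0.03 to 0.07 over the 7 arrays, with all 23 named genes tested. Single genes of the list went both ways, which a median does not show. Their median difference was 0.047. At an unadjusted p under 0.05, 3 were higher (Ier2 at 0.37, Ier3 at 0.28 and Klf2 at 0.44), as were 8.39% of all tested genes. The nuclear receptor Nr4a2 was the 1 lower gene, at -0.55 and below the background limit in all arrays, where 3.54% of all tested genes were lower. Without overlap, 5 of the 23 were higher and 1 lower, against 7.1% and 3.8% of all tested genes. Whether dissociation differed between the arrays was not tested. Of 12 tested neutrophil markers, 11 had differences above 0, against 48.6% of all tested genes, with a median of 0.513. At an unadjusted p under 0.05, 1 was higher, against 8.39% of all tested genes. Among the 3 brightest, Ngp differed by 0.20 and Camp by 0.68, whereas Csf3r, the 1 marker of the list below 0, differed by -0.19. The list had median deviations of -0.64 to 0.13 with B2m intact and -0.69 to 1.27 without B2m, highest in knockout replicates 4 and 3. The log2 of the summed level of these 12 markers was 14.19 to 14.76 with B2m intact and 14.13 to 15.42 without B2m, and 5 of 12 lay above the background limit in all arrays. Of 7 tested monocyte markers, 3 were higher at an unadjusted p under 0.05, against 8.39% of all tested genes. Differences were above 0 in 5 of the 7 markers, against 48.6% of all tested genes, with a median of 0.345. The brightest were Fn1 at -0.32, Plac8 at 1.105 and Ly6c2 at 0.35. Median deviations of the 8 named monocyte markers were -0.30 to 0.02 with B2m intact and -0.30 to 0.76 without B2m, highest in knockout replicate 4. The log2 of their summed level was 11.79 to 12.42 with B2m intact and 12.05 to 13.15 without B2m, and 1 of 8 lay above the background limit in all arrays. In limma 0 genes of either list passed. The part of neutrophil or monocyte RNA in the member values was not tested.

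Among the partners of these chaperones, 0 genes passed in limma over all genes, and the lists went different ways. The cytosolic HSP70 system, with its J-domain proteins, exchange factors and the 4 members it holds, had 25 tested genes, 15 of them below 0, and a median of -0.036. At an unadjusted p under 0.05, 2 were lower and 1 higher. Of all tested genes 51.4% lay below 0, and 3.54% were lower and 8.39% higher at that threshold. The same shares apply to the lists that follow. Bag1, an exchange factor that links HSP70 to the proteasome, was 10.31, 10.40 and 10.67 with B2m intact and 10.95, 11.02, 10.79 and 10.77 without B2m, with no overlap (0.42, SE 0.12, adjusted p = 0.315). Hspa2, an HSP70 best known from the testis, was -0.52 (SE 0.20, adjusted p = 0.381) with all values below the background limit.

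The cytosolic HSP90 system had 15 tested genes, 7 below 0, and a median of 0.030. Its kinase-loading partner Cdc37 was 8.82, 8.22 and 8.97 with B2m intact and 9.17, 9.13, 9.09 and 9.12 without B2m, a difference of 0.46 (SE 0.16, limma adjusted p = 0.348). All knockout arrays were above all wildtype arrays, below the background limit throughout. It was the 1 gene of the list at an unadjusted p under 0.05.

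Of the small heat shock proteins, 4 of 10 were tested and their median was -0.052. Beside Hspb1 at -0.39, the muscle gene Hspb3 stood at 0.45 (SE 0.11, limma adjusted p = 0.315), also below the background limit in all arrays. These were the 2 genes of the list at an unadjusted p under 0.05.

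Mitochondrial chaperones and proteases had 14 tested genes, 9 above 0, and a median of 0.071. The protease subunit Clpp at 0.26 (SE 0.11, limma adjusted p = 0.389) and the mitochondrial HSP90 Trap1 at -0.22 (SE 0.10, limma adjusted p = 0.418) were at an unadjusted p under 0.05. In both the groups did not overlap and all values lay below the background limit. Hspd1 and Hspe1 thus sat in a list that itself went both ways.

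TRiC, the chaperonin of the cytosol, and prefoldin, which hands it unfolded actin and tubulin, had a median of 0.15. That median was the highest of the 9 chaperone and stress lists over all arrays and the main filter. Under a stricter filter it was not the highest (0.14, against 0.26 for heat shock factors and 0.19 for mitochondrial chaperones). Heat shock factors also stood higher without wildtype replicate 3 (0.1521 against 0.1508) and without knockout replicate 4 (0.174 against 0.155). All 12 tested TRiC and prefoldin genes had differences above 0, against 48.6% of all tested genes. At an unadjusted p under 0.05, 3 were higher, as were 8.39% of all tested genes. The 3 were the prefoldin subunits Pfdn4 at 0.44 (SE 0.12), Pfdn6 at 0.50 (SE 0.16) and Pfdn5 at 0.38 (SE 0.14), with limma adjusted p from 0.315 to 0.348. Pfdn6 was 9.48, 9.80 and 9.98 with B2m intact and 10.08, 10.47, 10.04 and 10.45 without B2m, without overlap. Wildtype replicate 1, the highest array for 6 heat shock proteins, was the lowest for all 3 of these subunits.

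**Figure D4:**
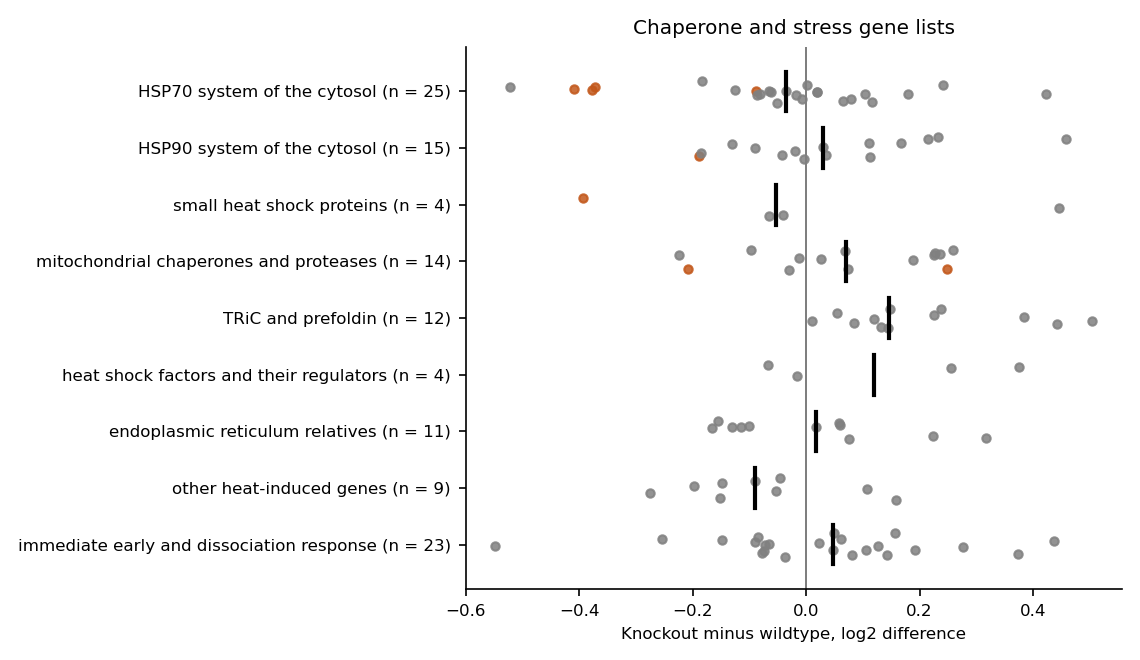
Knockout minus wildtype difference (log2) of every tested gene in 9 chaperone and stress lists, with the list median as a black bar. Heat shock protein members are orange and other genes grey, and vertical scatter within a list has no meaning. The TRiC and prefoldin genes all lie above 0.

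The heat shock factors and their regulators were mostly dim, with 1 of 6 named genes above the background limit in all arrays. Hsf2, a partner of HSF1, was 8.86, 8.48 and 8.61 with B2m intact and 8.61, 9.55, 8.79 and 9.16 without B2m, a difference of 0.38 (SE 0.20, limma adjusted p = 0.495). It exceeded the background limit in 1 array, knockout replicate 2. Hsbp1, which encodes a small protein that binds trimeric HSF1, had means of 10.94 ± 0.16 (SD, n = 3) and 11.19 ± 0.13 (SD, n = 4) in that order, a difference of 0.26 (SE 0.12, limma adjusted p = 0.424). Hsf1 was not analysed here, and the 4 tested genes of this list had a median of 0.12 with 0 at an unadjusted p under 0.05.

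Chaperones of the endoplasmic reticulum, which answer to the unfolded protein response rather than to HSF1, had a median of 0.018 over 11 tested genes. The cofactor Sdf2l1 at 0.32 (SE 0.12, limma adjusted p = 0.379) was the 1 gene at an unadjusted p under 0.05. The other heat-induced genes had a median of -0.091 with 7 of 9 tested genes below 0 and 0 at an unadjusted p under 0.05 in limma. Serpinh1, the collagen chaperone HSP47, had the smallest p of that list at -0.27 (SE 0.14, limma adjusted p = 0.465), below the background limit in all arrays.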

How the data were processed

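The authors deposited 1 log2 expression value per probe set and array, and the submitters' processing notes name RMA and Affymetrix Expression Console 1.1 for this step. RMA removes background, equalizes the arrays and combines the probes of a set, so weak signals are compressed. The array's genome build was not given in the sources used here. Of 28846 rows, 19572 were named through the probe annotation, and symbols were updated by Entrez identifier. For 55 genes with several probe sets the brightest was kept. Genes above the array median of named genes in at least 3 of 7 arrays (10004) were compared in limma 3.58.1 (R 4.3.3; lmFit, eBayes) with Benjamini-Hochberg adjustment over all of them. The fit was tested on simulated data. There 37.5% of genes lowered by 0.5 and 35% of genes raised by 0.5 passed an adjusted p under 0.05. All members differed by less than that, so differences of their size would often be missed. The 5222 rows tagged neg served as negative controls, and values under their 95th percentile on an array were read as not well above background. Array number limits precision. Members and gene lists were chosen with earlier results of these data known. The labels do not tell whether each sample is a separate animal, and the p-values rest on sample-to-sample spread alone, part of which may be technical. Named genes were the members, B2m, Hsf1 and Hsf2. Genes of each list at an unadjusted p under 0.05 were also named (at most 4, or the smallest p). So were the 3 brightest markers of each cell type described, except for T and natural killer cells. Alternatives are given in the closing section.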

Additional observations from a re-analysis of the deposited data

Results flagged for a closer look

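Hspd1 in knockout replicate 3 stood apart from the other 3 knockout arrays, at 8.43 against 8.96, 8.98 and 9.03. Its gap to the nearest was 0.877 of the range of the 4 arrays, above Dixon's 95% critical value for 4 samples. Of 10 sets of knockout values examined, 1 was flagged, and chance flags about 1 in 20 groups. Without that array the difference of Hspd1 was -0.068 in place of -0.21.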

How the results depend on the processing

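No paired analysis was possible because the labels give no replicate numbers, and those used here follow deposit order. Over 17 alternatives, 0 members passed in limma, with adjusted p from 0.172 up. Among single members 1 sign reversed: Hspd1 was 0.10 without wildtype replicates 1 and 2, which leaves 1 wildtype array, and -0.36 to -0.068 over single left-out arrays. Members lower at an unadjusted p under 0.05 were 0 to 4 over single left-out arrays, 0 without wildtype replicate 1 and knockout replicate 4, and 0 without wildtype replicates 1 and 2; higher, 0 to 1. Members without overlap were 1 to 3 over single left-out arrays, where fewer arrays make a lack of overlap more likely. Shares over all tested genes were not taken for these smaller sets. Removing the gene span trend, an alternative chosen after seeing the data, left Hspa1a at -0.40. Hspa1b was not tested under the stricter filter. List medians moved for the endoplasmic reticulum (-0.016 to 0.037 over single left-out arrays, -0.032 after repeated quantile normalization, -0.045 without wildtype replicate 1 and knockout replicate 4, -0.090 without wildtype replicates 1 and 2), heat shock factors (0.027 unfiltered, 0.26 under the stricter filter, with other genes tested), mitochondrial chaperones (0.19 under the stricter filter, 0.096 with array weights, 0.10 centred on array medians) and small heat shock proteins (-0.39 under the stricter filter). For immediate early genes the median was -0.022 to 0.063 over single left-out arrays and 0.072 without wildtype replicates 1 and 2. Medians near 0 also changed sign for the HSP90 system (-0.034 to 0.066 over single left-out arrays, -0.071 without wildtype replicates 1 and 2), the HSP70 system (0.024 without wildtype replicate 1, 0.0067 without it and knockout replicate 4) and small heat shock proteins (0.022 without knockout replicate 2, 0.016 with array weights). The cause was not tested, except that a stricter filter or none changes which genes are tested. Dim members (Hspa1b, Hspd1) limit what can be seen.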

Other observations

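Other genes with heat shock element letters in their promoters were also examined, a choice made after seeing the data. Of the tested genes, 40 held the 3-unit form in the 250 bases before a start, among them Hspd1 and Hspe1. Their median difference was -0.03 with 23 below 0. In limma 0 of them passed, while 2 had higher and 0 had lower levels at an unadjusted p under 0.05, which is 5.0% against 11.9% of all tested genes. The 2-unit form was held by 969 tested genes, among them 6 members, with a median of 0.017. At the same threshold 25 had lower and 88 had higher levels, which is 11.7%. The targeted gene B2m was among the lower ones and was the 1 gene of this set that passed in limma. The 2 higher genes with the 3-unit form were Bst2, an interferon-induced membrane protein that tethers viruses, and the ribosomal gene Rps18.

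Hspa1l, the third HSP70 gene next to Hspa1a on chromosome 17, was below the filter and had no test. It was chosen after its values were seen. Its values were 7.45, 7.09 and 7.31 with B2m intact and 6.99, 6.78, 6.93 and 6.95 without B2m, all under the background limit. Every knockout array lay below every wildtype array, as in 3.8% of all tested genes. That share was not taken for genes below the filter. Bag3, an HSP70 exchange factor induced with it and also chosen after its values were seen, was 9.50, 9.04 and 9.32 with B2m intact and 9.18, 9.17, 8.86 and 9.21 without B2m, a difference of -0.18 (SE 0.14, limma adjusted p = 0.615).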
